A study of Rattus norvegicus with 15 samples.

Results

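The 10 genes described here carry calcium through the contraction and relaxation of a skeletal muscle fibre. They are Cacna1s, Ryr1, Jph1, Casq1, Casq2, Atp2a1, Atp2a2, Sln, Pln and Pvalb. They were taken by symbol from a table of 37991 rat genes, and all 10 passed the filter on low counts, as did 17201 genes of the table. RNA of the multifidus, a paraspinal muscle, was sequenced in 15 libraries from wild type male Sprague Dawley rats of 12 weeks and 340 to 370 g. The control group (2 libraries) had no injury, and the other 4 groups all had spinal surgery. In the study's model this surgery is a hemilaminectomy, which removes part of the vertebral arch, with ligation and severing of the left L5 spinal nerve. There, treatment came 2 weeks after surgery, and muscle was taken 2 weeks after treatment. The study gives the age and weight for the rats that it divided into groups, so not for the day of collection. The surgery group (2 libraries) had no treatment afterwards. The pMT group (4 libraries) received 25 μg of mitochondria in 100 μL at each of the injected left paraspinal levels, 50 μg per rat. These plasma-derived mitochondria (pMT) were isolated from human blood. The VitD group (3 libraries) received cholecalciferol (vitamin D3) at 150 μg per site and 300 μg per rat, and the pMT/VitD group (4 libraries) received both at those doses. No group here received the carrier buffer alone after surgery, so the injection itself and what was injected cannot be told apart.

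When a fibre is excited, the voltage sensor of the transverse tubule opens the calcium release channel of the sarcoplasmic reticulum, and the calcium released starts contraction. The fibre relaxes when calcium pumps return calcium to the reticulum, where calsequestrins bind it. Small membrane proteins such as sarcolipin restrain the pumps, and parvalbumin binds calcium in the cytosol of fast fibres. Fast and slow fibres differ in the pump and calsequestrin genes they favour. Sarcolipin is known to be scarce in adult fast rodent muscle and to rise in many models of muscle disease and unloading.

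The sequences before the starts of 4 members are shown because they carry the contrasts described further on. Casq2 and Cacna1s changed between groups, Atp2a1 followed Cacna1s most closely across libraries, and Casq1 is the skeletal muscle paralogue of Casq2. RefSeq promoters of the GRCr8 assembly were matched for 8 of the 10 members. Sln and Jph1 were not matched. Each sequence is the 250 bases before the annotated start, 5′ to 3′ on the gene's strand. The positions are chr2:192214306-192214555 (plus strand) for Casq2, chr13:87212711-87212960 (minus strand) for Casq1, chr13:50045418-50045667 (plus strand) for Cacna1s and chr1:190475411-190475660 (minus strand) for Atp2a1. Capitals mark E-boxes (CANNTG, the letters bound by myogenic regulators, a palindrome that reads alike on both strands) and, in Casq2 only among these 4, the match to the MEF2 motif.
Casq2: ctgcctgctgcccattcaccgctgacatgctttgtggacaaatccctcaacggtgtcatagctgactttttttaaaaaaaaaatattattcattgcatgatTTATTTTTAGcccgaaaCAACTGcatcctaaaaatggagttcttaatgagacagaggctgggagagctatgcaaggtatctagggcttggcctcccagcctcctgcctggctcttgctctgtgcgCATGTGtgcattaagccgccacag
Casq1: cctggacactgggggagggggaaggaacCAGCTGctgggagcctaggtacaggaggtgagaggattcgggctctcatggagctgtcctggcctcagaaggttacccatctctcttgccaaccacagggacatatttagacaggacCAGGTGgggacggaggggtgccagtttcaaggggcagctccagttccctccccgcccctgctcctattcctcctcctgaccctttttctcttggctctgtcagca
Cacna1s: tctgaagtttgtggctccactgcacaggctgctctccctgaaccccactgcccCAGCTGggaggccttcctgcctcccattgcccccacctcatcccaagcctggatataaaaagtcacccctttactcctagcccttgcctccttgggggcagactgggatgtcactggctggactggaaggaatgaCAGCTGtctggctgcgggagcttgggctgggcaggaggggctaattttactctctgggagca
Atp2a1: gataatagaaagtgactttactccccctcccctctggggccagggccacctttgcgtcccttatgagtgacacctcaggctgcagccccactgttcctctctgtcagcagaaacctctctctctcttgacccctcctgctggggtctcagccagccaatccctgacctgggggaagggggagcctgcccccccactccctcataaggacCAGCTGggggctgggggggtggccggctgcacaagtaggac

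An E-box was found in 8 of the 8 matched promoters, beside 65.5% of all 33469 promoters of the same length. In Casq2 the E-boxes began 132 and 24 bases before the start, and the MEF2 match began 149 bases before it. A MEF2 match was held by 1 of the 8 members, Casq2, and by 2.96% of all promoters, searched on both strands. The letters GGAATG, the MCAT element, were found on either strand in 1 of the 8, Cacna1s, and in 12.1% of all promoters. The letters TATAAA, searched likewise, were found in 1 of the 8, Cacna1s again, and in 12.9% of all promoters. These matches describe letters only, and no binding was measured.

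Library depth was 52342100 to 73557900 counts, with a median of 64352200, and the 10 genes took 1.70% to 3.61% of each library's counts. The tissue carried fast fibre markers at a summed 85974 to 133818 counts per 1000000 (CPM) and slow fibre markers at 4052 to 7429 CPM. Several libraries did not sort by their labels. Over 3129 abundant genes, pMT-4 was nearer to a pMT/VitD library (SD of log2 ratios 0.178 at the nearest) than to any other pMT library (0.365 to 0.550), while pMT/VitD-4 was nearest to a control library (0.166), then to a pMT library (0.194), and farther from the others of its own group (0.371 to 0.479). VitD-2 lay 0.0821 to 0.107 from the surgery libraries and 0.153 to 0.398 from the other VitD libraries. In addition, 6 libraries lay between a pair of others for more of the genes that differed by over 0.5 (log2) in that pair than the 99th percentile over all 1118 trios of libraries with 100 or more such genes, 97.6%. The median over these trios was 58.1%, and some trios must pass the cutoff by its definition. The share was 98.9% of 273 genes for pMT-2 between pMT-1 and pMT-3, 99.9% of 912 genes for VitD-2 between VitD-1 and VitD-3, 99.4% of 154 genes for pMT/VitD-1 between pMT-4 and pMT/VitD-2, and 99.3% of 423 genes for Control-1 between pMT/VitD-3 and pMT/VitD-4. It was 98.2% of 912 genes for Surgery-2 between VitD-1 and VitD-3 and 98.2% of 1138 genes for Surgery-1 between pMT-2 and VitD-1. A mixture of 49.4% pMT-1 and 50.6% pMT-3 came within an SD of 0.0527 (log2) of pMT-2, below the 0.0636 between both surgery libraries. Whether any libraries share RNA was not tested. Nothing in the labels says that the libraries came from separate rats, so the p-values measure the spread between libraries, which may not be independent samples. Results are therefore given with and without the first 4 of these libraries where that changes them. The surgery libraries, all that group has, were left out only 1 at a time.

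Levels are given as CPM scaled by TMM for comparisons of 1 gene between libraries, and as transcripts per 1000000 (TPM) for comparisons between genes. Pvalb, at a mean of 7185 TPM over the 15 libraries, and Atp2a1, at 6790 TPM, were the most abundant of the 10. Casq1 followed at 2357 TPM. Cacna1s (208 TPM), Atp2a2 (201 TPM) and Ryr1 (108 TPM) formed a middle tier, and Casq2 (69.7 TPM), Jph1 (62.8 TPM) and Sln (57.4 TPM) a lower one. Pln had the lowest mean, 3.47 TPM. The spread between libraries had another order. The highest library exceeded the lowest 161-fold in CPM for Sln, 5.05-fold for Casq2, 4.46-fold for Ryr1 and 4.06-fold for Cacna1s, while Casq1 varied 1.45-fold and Pln 1.66-fold.

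**Figure D1:**
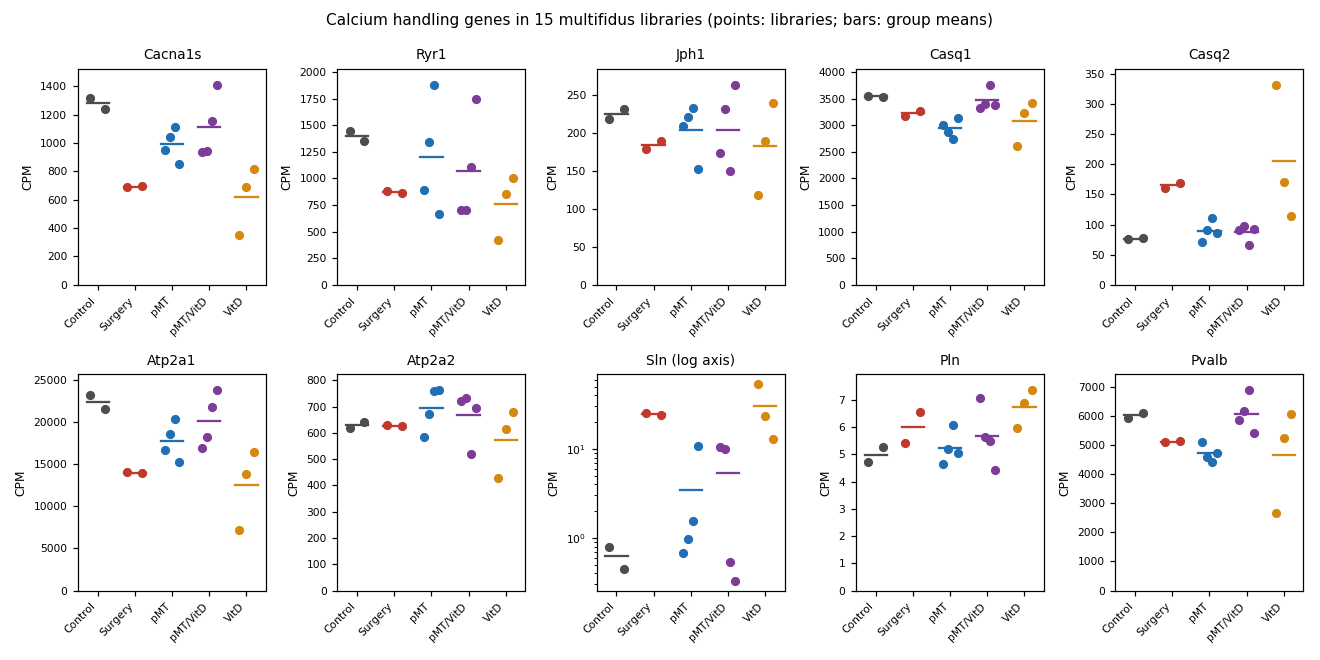
Level of each of the 10 genes in CPM (vertical axes, from 0 except for Sln, which has a log axis) in the 5 groups, with 1 point per library in replicate order and a bar at the group mean. Casq2 and Sln are higher in the surgery libraries than in the controls while Cacna1s and Atp2a1 are lower, and VitD-1 is the highest or the lowest of the 15 libraries for 9 of the 10 genes.

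Of the 9 pairwise comparisons, 2 held members with a Benjamini-Hochberg adjusted p under 0.05 in edgeR's quasi-likelihood test, adjusted over all 17201 genes. Between the VitD and control groups 2 of the 10 members were called, beside 8.67% of all genes tested. Casq2 rose and Cacna1s fell. Between the pMT/VitD and VitD groups 2 of the 10 were called, beside 21.9% of all genes, and here Casq2 was lower and Cacna1s higher with pMT. These comparisons share the VitD libraries. Across the 5 groups at once 1 member, Casq2, was called, beside 11.8% of all genes. With 10 members a single call moves their share by 10 percentage points, so these counts do not set the members apart from all genes.

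No member was called in the other 7 pairwise comparisons. That was so for surgery against control (1.55% of all genes called), pMT against surgery (1.94%) and pMT/VitD against surgery (7.44%), where 4, 2 and 2 members had an unadjusted p under 0.05. DESeq2 called 2 members (Casq2 and Sln) for the first, beside 5.82% of all genes, 0 for the second, beside 4.34%, and 2 (Casq2 and Cacna1s) for the last, beside 13.1%. No gene of the table was called for VitD against surgery (0%, with 139 genes at an unadjusted p under 0.05), pMT/VitD against pMT (0%, 1737 genes), pMT against control (0%, 528 genes) or pMT/VitD against control (0%, 496 genes). The test of whether the effect of pMT differed with and without vitamin D called 0% of genes (888 at an unadjusted p under 0.05) and no member. In these 5 tests 0 members had an unadjusted p under 0.05, and DESeq2 called no member and at most 89 genes, for pMT/VitD against pMT. The median log2 difference of the 10 members was -0.19 for surgery against control, beside -0.01 over all genes tested, and 0.01 for pMT against surgery, beside 0.02.

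The direction of the calls held without pMT-4 and pMT/VitD-4, where 4 members were called for VitD against control and 2 for pMT/VitD against VitD. It also held without pMT-2, pMT/VitD-1 and VitD-2, but the calls did not all hold. Without these 3 libraries, 0 members were called for VitD against control and 1, Casq2, for pMT/VitD against VitD. Leaving out 1 library at a time, 0 were called for VitD against control without either control library, 1 (Casq2) without Surgery-1, Surgery-2, VitD-1 or VitD-2, 3 (with Sln added) without pMT-4, pMT/VitD-3 or pMT/VitD-4, and 4 (with Sln and Atp2a1 added) without VitD-3. For pMT/VitD against VitD, 1 (Casq2) was called without VitD-1 and 3 (with Atp2a1 added) without pMT-4 or VitD-3. Without Control-1, pMT-2, pMT/VitD-1 and VitD-2 together, 0 were called in either comparison, and the control group was then a single library assumed to vary like the others.

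**Figure D2:**
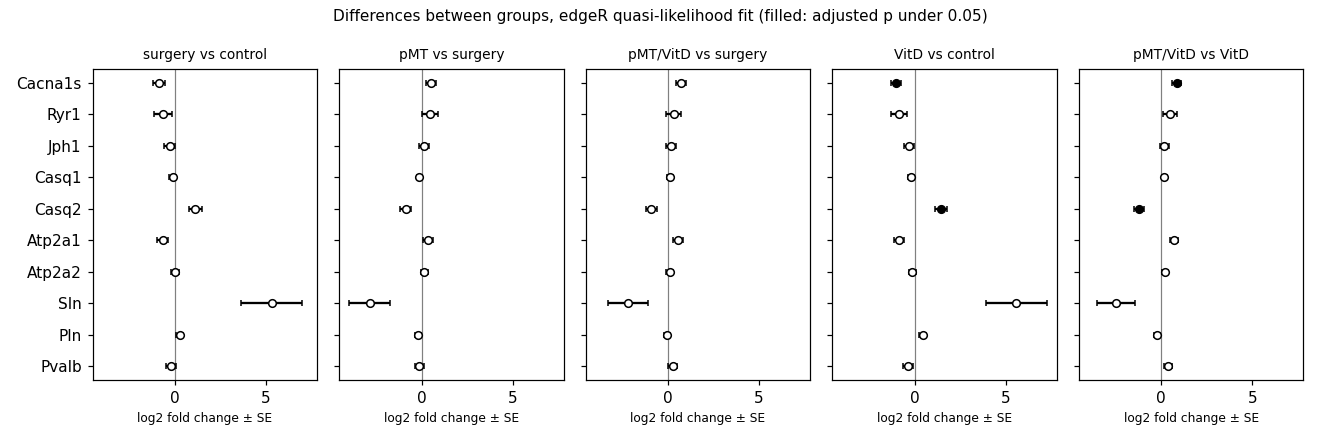
Log2 fold change with its standard error (horizontal axes) of each gene in 5 comparisons from the quasi-likelihood fit, with filled points for an adjusted p under 0.05. Only Casq2 and Cacna1s have filled points, each in the 2 comparisons that involve the VitD group on the right, and Sln has the widest errors in every panel.

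The coupling genes were led by Cacna1s, the voltage-sensing pore subunit of the skeletal muscle calcium channel. Its control libraries read 1319 and 1238 CPM and its surgery libraries 692 and 694 CPM. In the pMT group it read 954, 1045, 1112 and 852 CPM, and in the pMT/VitD group 940, 941, 1155 and 1412 CPM. The VitD libraries read 348, 687 and 820 CPM. All 8 libraries with pMT were above all 5 operated libraries without it, and pMT/VitD-4 was the highest library of the 15. No share of all genes is given for this split of the operated libraries, here or for Casq2, Sln, Orai1, Mcu and Micu3 below. For VitD against control the log2 fold change was -1.05 ± 0.27 (SE, adjusted p = 0.0325), and for pMT/VitD against VitD it was 0.85 ± 0.24 (adjusted p = 0.0212). Without pMT-2, pMT/VitD-1 and VitD-2 these were -1.13 (adjusted p = 0.110) and 1.002 (adjusted p = 0.0784). Scaled by library size only, they were -0.78 (adjusted p = 0.0797) and 0.54 (adjusted p = 0.111). Against surgery, pMT gave 0.52 ± 0.27 (adjusted p = 0.421) and pMT/VitD 0.68 ± 0.27 (adjusted p = 0.138), and neither passed the test.

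Ryr1, the calcium release channel of the sarcoplasmic reticulum that the voltage sensor opens, read 1444 and 1353 CPM in the controls and 883 and 859 CPM after surgery. Its pMT libraries were spread over 896, 1344, 1884 and 669 CPM, and its pMT/VitD libraries over 705, 707, 1110 and 1745 CPM. In the VitD group it read 422, 854 and 1003 CPM. The surgery and VitD libraries were all below both controls, but the treated groups spanned nearly the whole range, and no comparison passed the test (surgery against control -0.68 ± 0.50, adjusted p = 0.522). Ryr1 is a very long transcript, and its log2 CPM correlated at r = 0.63 over the 15 libraries with each library's trend of counts on gene length, which ran from rho = -0.39 to 0.45. The part of that trend in the spread of Ryr1 was not tested.

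Jph1, junctophilin 1, which ties the transverse tubule to the reticulum, ranged from 118 CPM in VitD-1 to 263 CPM in pMT/VitD-4. Its control libraries read 218 and 231 CPM and its surgery libraries 179 and 189 CPM. Control and surgery were the only pair of groups compared that did not overlap, and no comparison passed the test. The correlation of Jph1 with the length trend was r = 0.47.

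Casq2, the cardiac and slow fibre calsequestrin, was the member with the most calls. Its control libraries read 75.8 and 76.9 CPM and its surgery libraries 161 and 169 CPM. The pMT libraries read 70.2, 91.0, 111 and 86.0 CPM, and the pMT/VitD libraries 91.7, 97.6, 65.8 and 91.9 CPM. In the VitD group it read 332, 171 and 114 CPM. The 5 operated libraries without pMT were all above the 8 libraries with pMT and the 2 controls, with VitD-3 closest to them. The log2 fold change for VitD against control was 1.43 ± 0.34 (adjusted p = 0.0222) and that for pMT/VitD against VitD was -1.24 ± 0.27 (adjusted p = 0.00579). The other differences had similar sizes and did not pass, with 1.11 ± 0.36 for surgery against control (adjusted p = 0.128), -0.88 ± 0.30 for pMT against surgery (adjusted p = 0.170) and -0.93 ± 0.30 for pMT/VitD against surgery (adjusted p = 0.0733). Casq2 was called for pMT/VitD against VitD in 26 of 27 alternative analyses. The exception left out 4 libraries that lay between others, where the adjusted p was 0.0706.

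Casq1, the skeletal muscle calsequestrin, was among the steadiest of the 10, between 2604 and 3768 CPM in all libraries. It read 3554 and 3540 CPM in the controls, 3186 and 3266 CPM after surgery, and 3015, 2876, 2739 and 3147 CPM with pMT. With pMT and vitamin D together it read 3322, 3402, 3768 and 3393 CPM, above all pMT libraries, and no comparison passed the test (pMT/VitD against pMT 0.24 ± 0.12, adjusted p = 0.504). Among the 10 members, 2 had pMT and pMT/VitD libraries that did not overlap, Casq1 and Pvalb, beside 4.86% of all genes.

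Per length, Casq2 made up 1.58% and 1.61% of the summed calsequestrin TPM in the control libraries and 3.67% and 3.74% after surgery. The VitD libraries stood at 8.76%, 3.83% and 2.43%, the pMT libraries between 1.72% and 2.96% and the pMT/VitD libraries between 1.30% and 2.11%. Casq1 was thus the main calsequestrin in every library. For the pumps, Atp2a2 made up 1.87% to 4.43% of the summed TPM of both, with 2.08% and 2.34% in the controls and 3.38% and 3.48% after surgery.

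**Figure D3:**
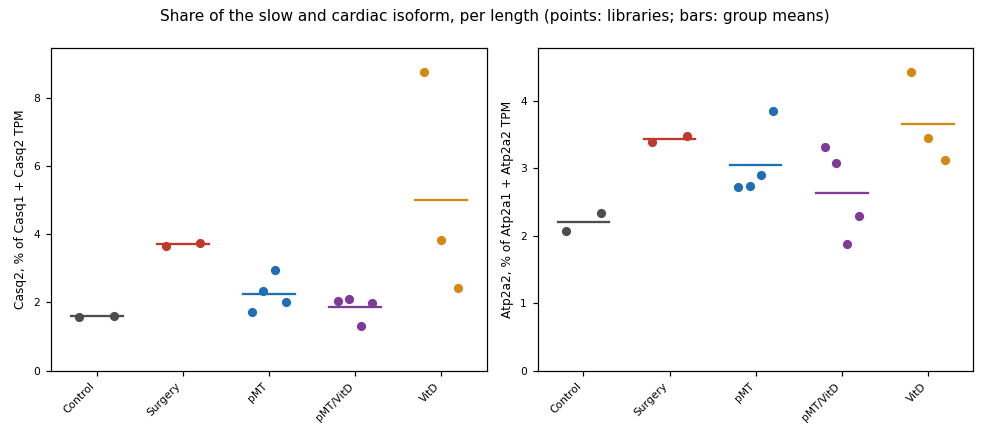
Share of Casq2 in the summed TPM of Casq1 and Casq2 (left) and of Atp2a2 in that of Atp2a1 and Atp2a2 (right), as percent on axes from 0, with 1 point per library and a bar at each group mean. The surgery libraries lie above the controls in both panels (3.67% and 3.74% against 1.58% and 1.61% on the left), and VitD-1 is the highest library in both.

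Atp2a1, the calcium pump of fast fibres (SERCA1), read 23268 and 21514 CPM in the controls and 14072 and 13915 CPM after surgery. It read 16661, 18560, 20366 and 15295 CPM with pMT, and 16904, 18259, 21750 and 23760 CPM with pMT and vitamin D. The VitD libraries read 7169, 13816 and 16456 CPM. The surgery libraries were below all controls and all libraries with pMT, while VitD-3 reached into the range of the pMT group. No comparison passed the test. The nearest were pMT/VitD against VitD (0.69 ± 0.24, adjusted p = 0.0515) and VitD against control (-0.84 ± 0.28, adjusted p = 0.0731).

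Atp2a2, the pump of slow fibres and heart (SERCA2), had nearly the same level in the control libraries (618 and 643 CPM) and the surgery libraries (628 and 626 CPM). Its log2 difference between those groups was -0.01 ± 0.22. Over the other libraries it ranged from 428 CPM in VitD-1 to 762 CPM in pMT-4, and no comparison passed the test.

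Sln, sarcolipin, a small membrane protein that binds the pumps and lowers their calcium transport, had the widest range of the 10. It was near the lower end in the control libraries at 0.789 and 0.450 CPM (50 and 27 reads) and stood at 25.5 and 23.9 CPM after surgery. The VitD libraries read 53.4, 23.7 and 13.0 CPM. The pMT libraries read 0.674, 0.985 and 1.54 CPM in 3 of them and 10.8 CPM in pMT-4. The pMT/VitD libraries split in the same way, with 10.4 and 10.1 CPM in 2 of them and 0.538 and 0.331 CPM in the others. Thus all 5 operated libraries without pMT were above all 8 libraries with pMT, and 5 of those 8 lay near the controls. As for Cacna1s, no share of all genes is given beside this split.

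The differences of Sln were the largest of the 10 in size in these comparisons, and none passed the test. DESeq2, on the same 15 libraries, called Sln for surgery against control and for VitD against control. The log2 fold change was 5.31 ± 1.68 for surgery against control (adjusted p = 0.126) and 5.59 ± 1.66 for VitD against control (adjusted p = 0.0524). It was -2.85 ± 1.13 for pMT against surgery (adjusted p = 0.256), -2.21 ± 1.12 for pMT/VitD against surgery (adjusted p = 0.240) and -2.49 ± 1.04 for pMT/VitD against VitD (adjusted p = 0.102). Without pMT-4 and pMT/VitD-4 the first became 5.34 (adjusted p = 0.0399), VitD against control 5.63 (adjusted p = 0.0149) and pMT against surgery -4.53 (adjusted p = 0.0360). Without pMT-2, pMT/VitD-1 and VitD-2, VitD against control was 5.74 (adjusted p = 0.117). The study's own kind of test, edgeR's exactTest on the pMT and surgery libraries alone with a fold change of at least 2, called 1 member, Sln, with a log2 fold change of -2.83 (adjusted p = 0.0484), beside 2.72% of the 16609 genes it tested. Under exactTest Casq2 (-0.89, adjusted p = 0.000171) and Cacna1s (0.50, adjusted p = 0.0448) also had an adjusted p under 0.05 but missed the fold change.

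Markers of several cell types and fibre states moved with Sln. Over the 15 libraries log2 CPM of Sln had r = 0.84 with the summed heart muscle markers, 0.72 with adipocyte, 0.64 with macrophage and 0.61 with fibroblast markers. It had r = 0.57 with slow fibre markers, 0.50 with denervation and immature fibre markers and -0.69 with the smooth muscle sum. The smooth muscle list was mixed. For surgery against control Des, which the study used as a muscle marker, was lower (log2 -0.53), as were Lmod1 (-1.47) and Smtn (-0.08). Myh11 (0.31), Acta2 (0.15), Cnn1 (0.43) and Tagln (0.31) were higher, and no gene of the list was called. The summed CPM of 8 denervation and immature fibre genes was 278 to 287 in the controls, 653 to 666 after surgery and 417 to 1425 in the VitD group. It was 152 to 434 with pMT and 175 to 277 with pMT and vitamin D. In the quasi-likelihood test, 4 of these 8 genes were called higher for surgery against control, beside 1.55% of all genes called. For VitD against control 7 were called higher, beside 8.67%, and for pMT against surgery 6 were called lower, beside 1.94%. The 3 libraries with pMT in which Sln was at 10.1 to 10.8 CPM (pMT-4, pMT/VitD-1 and pMT/VitD-2) did not follow the sum of this list. In that sum they were the 3 lowest libraries, at 152 to 176 CPM. Gadd45a, a gene of the list, did vary with Sln over the 15 libraries (r = 0.96). The same 3 libraries had the 3 highest sums of the 8 slow fibre markers, 6588 to 7429 CPM, against 4052 to 5392 CPM in the other 12. They also had the 3 lowest length trends, at rho = -0.32, -0.39 and -0.39, against -0.17 to 0.45 in the other 12. Shorter genes thus read relatively higher in them, and Sln is the shortest of the members by effective length. In these 3 libraries Myl3, a slow fibre and ventricular myosin light chain, read 1351 to 1594 CPM, against 618 to 770 CPM elsewhere. The adipocyte markers summed to 328 to 405 CPM in these 3 libraries and to 437 CPM in VitD-1, against 171 to 281 CPM in the other 11. The part of any of these markers or of the length trend in the level of Sln was not tested. Nor was the part of the length trend in the marker sums.

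Heart muscle also makes Sln, Pln, Casq2 and Atp2a2 transcripts, so its markers are given as well. Of the 6 heart muscle markers, Nppa was at 0 in every library and Ryr2 was too low for the filter, with 0 to 11 reads. The sum of the 6 was 183 to 372 CPM, most of it Myh6. It was highest in pMT-4 (372 CPM) and pMT/VitD-1 (324 CPM), both among the libraries with pMT in which Sln was above 10 CPM, and stood at 184 to 204 CPM in the controls, 290 to 297 CPM after surgery and 273 to 287 CPM in the VitD group. Of its genes, 1 of the 4 tested, Tnnt2, was called higher for surgery against control (beside 1.55% of all genes called). It was also called higher for VitD against control (beside 8.67%). Tnnt2, cardiac troponin T, is also made by immature skeletal fibres. Whether any of these transcripts came from heart muscle was not tested.

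**Figure D4:**
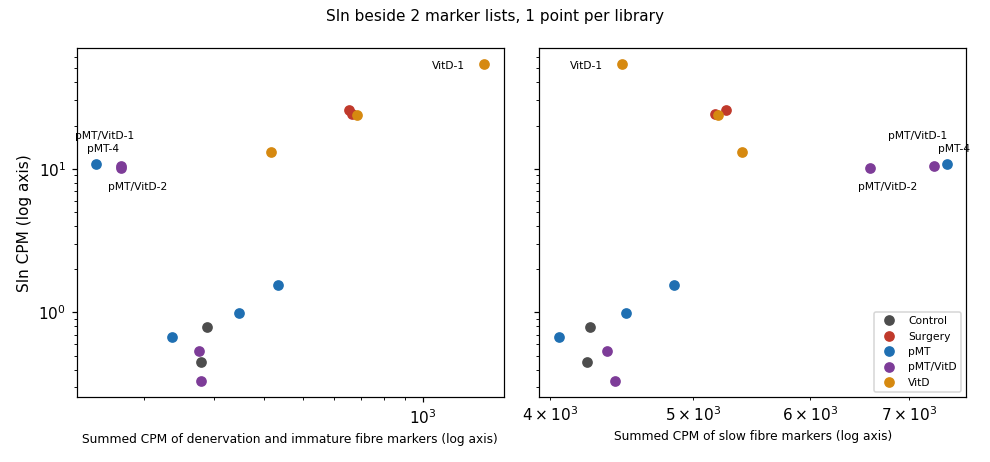
Level of Sln in CPM (vertical log axis) against the summed CPM of 8 denervation and immature fibre markers (left, log axis) and of 8 slow fibre markers (right, log axis), with 1 point per library coloured by group. Surgery and VitD libraries join high Sln with high denervation markers. However, pMT-3 has a denervation sum (434 CPM) above that of VitD-3 (417 CPM), with Sln at 1.54 CPM against 13.0 CPM. The libraries pMT-4, pMT/VitD-1 and pMT/VitD-2 stand apart with Sln near 10 CPM, the lowest denervation sums and the highest slow fibre sums.

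The other regulator of the pump, Pln (phospholamban), was low and steady, between 4.42 and 7.35 CPM. Its VitD libraries read 5.98, 6.88 and 7.35 CPM, above both controls at 4.72 and 5.27 CPM, and no comparison passed the test (VitD against control 0.43 ± 0.18, adjusted p = 0.158).

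Pvalb, parvalbumin, the calcium buffer of the fast fibre cytosol, read 5935 and 6111 CPM in the controls and 5095 and 5141 CPM after surgery. It read 5117, 4588, 4416 and 4738 CPM with pMT and 5875, 6154, 6876 and 5395 CPM with pMT and vitamin D. The VitD libraries read 2675, 5241 and 6053 CPM. The pMT/VitD libraries were all above those of the pMT and surgery groups, yet no comparison passed the test (pMT/VitD against pMT 0.37 ± 0.20, adjusted p = 0.523).

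Counts of members whose libraries did not overlap read as follows. Between surgery and control 9 of 10 did not overlap (all but Atp2a2), beside 66.1% of all genes with 2 libraries a side. For pMT against surgery this was 5 of 10, beside 30.4%, and for pMT/VitD against surgery 6 of 10, beside 36.8%. For VitD against control it was 7 of 10, beside 52.1%. For pMT/VitD against VitD it was 4 of 10, beside 28.6%, and for pMT against control 4 of 10, beside 15.2%. For VitD against surgery it was 0 of 10, beside 15.8%, and for pMT/VitD against control 0 of 10, beside 9.2%. The surgery mean lay between VitD-1 and VitD-3 for 10 of the 10 genes. VitD-2 was within 5% of the surgery mean for 9 of them, the exception being Pln at 14.8% above it. Most other genes behaved likewise, so these counts do not set the members apart. Of the 912 genes counted above for VitD-1 and VitD-3, Surgery-2 lay between those libraries for 98.2% and Surgery-1 for 97.5%. Over 3129 abundant genes the SD of log2 ratios of VitD-2 to the surgery libraries was only 0.0821 to 0.107.

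The members fell into sets that varied together over the 15 libraries, given here as a description since the libraries share groups and scaling. Cacna1s and Atp2a1 had r = 0.99 in log2 CPM, Ryr1 had r = 0.83 with Atp2a1 and 0.82 with Cacna1s, and Casq1 and Pvalb had r = 0.90. Casq2 had r = 0.79 with Sln, -0.89 with Cacna1s and -0.87 with Atp2a1. The fibroblast markers summed to 2438 to 2467 CPM in the controls, 4214 to 4239 CPM after surgery and 3552 to 6653 CPM in the VitD group, and their sum had r = 0.90 with Casq2 and -0.81 with Cacna1s. The macrophage markers likewise stood at 176 to 178 CPM, 327 to 329 CPM and 290 to 430 CPM, with r = 0.89 for Casq2. Fibre lists also varied with Casq2, at r = 0.88 for denervation and immature fibre and -0.75 for fast fibre markers. Its r was -0.76 with the smooth muscle sum and 0.05 with the slow fibre sum. For Cacna1s the largest r in size was with the smooth muscle sum (0.86), beside -0.77 for macrophage, -0.72 for denervation and immature fibre and 0.66 for fast fibre markers. In a bulk sample fewer fibres of a type and less RNA per fibre cannot be told apart, and the part of these markers in the changes of Casq2 and Cacna1s was not tested.

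Of 11398 genes whose mean log2 CPM reached 1, those most like each member over the 15 libraries were as follows. Ryr1 was followed most closely by Scn4a (r = 0.99), the muscle sodium channel. Cacna1s was followed by Atp2a1 (0.99) and Arhgap44 (0.99), and Atp2a1 by Cacna1s and Cdip1 (0.98). Casq2 had a nestin-like gene, LOC100910255 (0.98), and Panx1 (0.98), the pannexin 1 channel. Sln was followed by Ltbp2 (0.97), which encodes a latent TGF-beta binding protein, and Col11a1 (0.97), a fibrillar collagen chain. Casq1 had Pvalb (0.90) and Mcm7 (0.89), while Pvalb had LOC108349921 (0.95) and Mxi1 (0.95). Jph1 was followed by Ipo7 (0.97) and Mtmr6 (0.97), Atp2a2 by the chaperone gene Hsph1 (0.92) and Synm (0.90), and Pln by Taf15 (0.86) and Phtf1 (0.82).

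A further list of 66 calcium handling genes was counted, of which 64 were in the table and 61 passed the filter. By mean TPM the leading 3 were Tmem38a (736 TPM), which encodes a potassium channel of the reticulum, Bin1 (532 TPM), which shapes the transverse tubule, and Hrc (451 TPM), a calcium binding protein of the reticulum. For surgery against control and pMT against surgery 0 of the 61 were called by the quasi-likelihood test, with 7 and 5 at an unadjusted p under 0.05. For VitD against control 4 were called, 1 higher and 3 lower, or 6.56% of the list beside 8.67% of all genes. Atp2b3, a plasma membrane calcium pump, fell (log2 -0.92 ± 0.19), as did Orai1 (-0.63 ± 0.15), the pore of store-operated calcium entry, and Mtm1 (-0.57 ± 0.16), the phosphatase myotubularin. Mcu (0.42 ± 0.11), the pore of the mitochondrial calcium uniporter, rose.

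For pMT/VitD against VitD, 15 of the 61 were called, 11 higher and 4 lower, or 24.6% of the list beside 21.9% of all genes. Rcan1, an inhibitor of calcineurin, was lower with pMT (log2 -1.06 ± 0.31), as was Slc8a1 (-0.72 ± 0.21), a sodium-calcium exchanger. Mrln (0.85 ± 0.23), which encodes myoregulin, another small inhibitor of the pump, and Orai1 (0.82 ± 0.13) were higher. For pMT/VitD against surgery 3 were called, or 4.92% of the list beside 7.44% of all genes. Orai1 (0.62 ± 0.15) and Micu3 (0.55 ± 0.15), a regulator of the uniporter, were higher, and Mcu (-0.40 ± 0.10) was lower. Across the 5 groups 5 of the 61 were called, Jsrp1, Atp2b3, Orai1, Mcu and Micu3.

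Orai1 read 101 and 83.8 CPM in the controls, 69.4 and 67.2 CPM after surgery and 62.0, 58.5 and 57.9 CPM with vitamin D alone. It read 96.0, 86.3, 79.7 and 112 CPM with pMT and 106, 114, 112 and 88.3 CPM with pMT and vitamin D. Every library with pMT and every control was thus above every operated library without pMT. Mcu ran the other way, at 24.2 to 27.8 CPM in the 5 operated libraries without pMT and 17.2 to 21.5 CPM in the other 10. Both genes had been called across the groups in these same libraries, so the splits are not separate evidence. No share of all genes is given beside these splits.

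**Figure D5:**
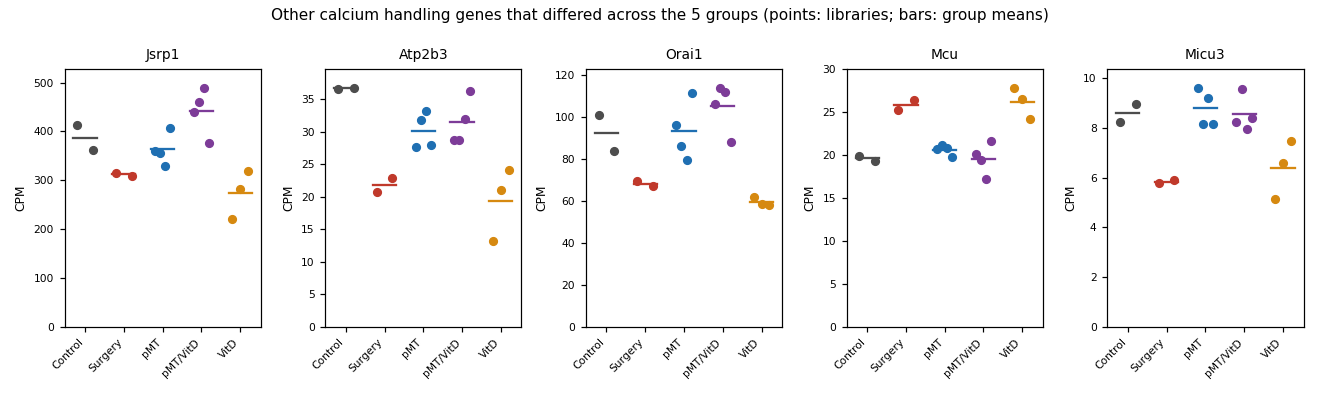
Level in CPM (vertical axes from 0) of the 5 further calcium handling genes that differed across the 5 groups, with 1 point per library and a bar at each group mean. Orai1 and Micu3 are lower, and Mcu higher, in all surgery and VitD libraries than in all other libraries. The genes were called in these same libraries, so the splits are not separate evidence, and no share of all genes is given beside them.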

How the data were processed

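Multifidus RNA of rats in 5 groups was sequenced in 15 libraries, grouped by their sample labels. Per the labels and the study's methods, the authors trimmed paired-end reads (Trimmomatic 0.38), aligned them to rn6 with HISAT2 2.1.0 and RefSeq annotation, sorted them (SAMtools 1.9) and quantified them with StringTie 2.1.3b. The authors deposited unnormalized read counts per gene, used for every test, and TPM values, used for levels between genes. The FPKM values that the authors also deposited were not used here. Strand handling and reads with several alignments are not described in the sources used here, so overlapping genes and near copies are uncertain. The promoter table is of GRCr8, so no gene position was joined to the counts.

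Counts were analysed in R 4.3.3 with edgeR 4.0.16. Genes passing filterByExpr were scaled by TMM and fitted with glmQLFit (robust) on all 15 libraries, with 1 mean per group. Quasi-likelihood F-tests compared groups, with p adjusted by Benjamini-Hochberg and calls made under 0.05. CPM were counts per 1000000 of the TMM-scaled library size, and correlations used log2 CPM with a prior count of 2. SE is the log2 fold change divided by the root of F. The fit was tested on simulated data.

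The 10 members, the 66 further genes, the marker lists and the tests were chosen with earlier results of these data known. All members were named, with at most 4 called genes of the further list per comparison (largest absolute log2 fold change), its 3 most abundant genes, and the 2 genes most correlated with each member. The 5 further genes called across the 5 groups were all named, above that limit of 4, and chosen after their values were seen. A gene named by this rule is not reported here. Myl3, Tnnt2, Gadd45a and the genes of the smooth muscle list were singled out after their values were seen. So was the comparison of Orai1 and Mcu by library. Alternatives were other scaling, filters, a replicate block, removal of the gene length trend, omission of mitochondrial genome genes, omission of libraries, DESeq2 1.42.0 and exactTest. The omission of libraries that lie between others was added after seeing the data.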

Additional observations from a re-analysis of the deposited data

Results flagged for a closer look

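Sln in pMT-4 stood far from the rest of its group, at 10.8 CPM where the 3 remaining ones read 0.674 to 1.54 CPM, a gap of 0.914 of the group's range. It was 1 of 20 sets of 4 libraries examined (10 genes in the pMT and pMT/VitD groups), and chance would give about 1 such set. The same library had the highest summed slow fibre markers of the 15, at 7429 CPM, and a length trend of rho = -0.32, among the 3 lowest. The part of either in the level of Sln was not tested.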

How the results depend on the processing

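No called log2 fold change of a member turned its direction under any alternative. Of the 100 member log2 fold changes, 4 were called, and over all alternatives 21 values lost a call and 51 gained one, while 105 uncalled values took another sign. The counts of called members moved as follows, and the cause was not tested except where fewer libraries entered the fit. For surgery against control 0 became 1 without pMT-4 and pMT/VitD-4, 7 with only those 2 groups fitted and 2 with DESeq2. For pMT against surgery 0 became 1 without pMT-4 and pMT/VitD-4, 1 with only the groups compared and 1 with exactTest, whether its p was adjusted or not. For pMT/VitD against surgery 0 became 1 with library size only, 1 with the gene length trend removed, 1 with only the groups compared and 2 with DESeq2. For pMT/VitD against VitD 2 became 4 with the length trend removed, 1 with only the groups compared, 1 without the 3 libraries that lie between others and 0 without 4 such libraries. For VitD against control 2 became 4 with the length trend removed, without pMT-4 and pMT/VitD-4, and with DESeq2, 1 with only the groups compared (Sln, with the calls of Casq2 and Cacna1s both lost), and 0 without the 3 or 4 libraries between others. With library size only, 3 members (Casq2, Pln and Sln) were called in each of these last 2 comparisons and Cacna1s lost its call. Across the 5 groups 1 became 3 with library size only, 4 with the length trend removed, 3 without pMT-4 and pMT/VitD-4, 4 with DESeq2, and 0 without the 3 or 4 libraries between others. Leaving out 1 library at a time gave 0 to 2 for surgery against control, 0 to 1 for pMT against surgery, 0 to 2 for pMT/VitD against surgery, 1 to 3 for pMT/VitD against VitD, 0 to 4 for VitD against control and 1 to 3 across the 5 groups. The other tests gave 0 members throughout.

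Deviations of same-numbered libraries of different groups had a median r of 0.01 (24 pairs, range -0.50 to 0.17, 2 above 0.1), and the main fit used no pairing. In the groups of 2 libraries the deviations mirror each other, so these pairs cannot settle whether the numbers are a pairing. With a replicate block, members called became 4 for VitD against control and 0 across the 5 groups.

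Counts over all genes moved with the libraries used. Without the 3 libraries between others, genes called went from 266 to 20 for surgery against control, 334 to 29 for pMT against surgery, 1279 to 198 for pMT/VitD against surgery, 3766 to 1143 for pMT/VitD against VitD, 1492 to 189 for VitD against control and 2035 to 357 across the 5 groups. Without 4 such libraries they were 1, 8, 21, 453, 1 and 70 in the same order. Without pMT-4 and pMT/VitD-4 they were 716, 541, 3462, 5497, 2589 and 5125, and pMT/VitD against pMT went from 0 to 3136. With only the groups compared the first 5 were 5289, 520, 836, 1816 and 96, and with DESeq2 all 6 were 1001, 747, 2249, 4643, 2471 and 3708. Scaling by library size alone shifted the median of all genes by -0.34 for pMT/VitD against VitD and 0.27 for VitD against control, and 3250 genes, 98 of them higher, were called for pMT/VitD against surgery. Pln, at 4.42 to 7.35 CPM, and Sln in the control libraries were the least deeply counted values of the members.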
